A study of Homo sapiens with 24 samples.

Results

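The islet hormone transcripts are the mRNAs of 6 genes, INS (insulin), GCG (glucagon), SST (somatostatin), PPY (pancreatic polypeptide), GHRL (ghrelin) and IAPP (islet amyloid polypeptide). A peak was taken as a hormone peak when the Ensembl identifiers given for it included one of these genes. By this rule 9 of 228472 m6A peaks were hormone peaks, and 27206 genes carried peaks in all. The hormone peaks fell on 5 of the 6 genes, since PPY had no peak in any list.

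Human pluripotent stem cells of the MEL1 line (hPSC) were differentiated through definitive endoderm (DE) and pancreatic progenitors (PP, media of days 9 to 14) to human islet-like organoids (hILO, aggregates formed after day 14, for which the labels list media of days 15 to 22 and the methods of the study a later medium). A second experiment compared wild-type PP (WT PP) with PP lacking the m6A demethylase ALKBH5 (A5-KO PP). In m6A-seq, fragments of RNA are precipitated by an antibody to N6-methyladenosine (IP) and sequenced beside fragments taken before this step (input). Each of the 6 populations had 2 IP and 2 input libraries, 24 in all, and 1 list of peaks called on its libraries together. The hPSC, DE, PP and hILO groups were made from mRNA of MEL1 cells not edited at ALKBH5, with a SYSY antibody. WT PP and A5-KO PP were made from total RNA with a Millipore antibody, another library kit and rRNA removed from the input. A5-KO cells carried Cpf1-induced indels in the first exon of ALKBH5 and were grown from picked colonies. In the methods of the study the line is MEL1 INS GFP/W, which carries GFP under the endogenous insulin promoter in all groups, and reads of the reporter allele were not separated here.

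Endocrine cells of the islet make peptide hormones as longer precursors, which prohormone convertases cut in the secretory granule. Beta cells release insulin with amyloid polypeptide, alpha cells glucagon and delta cells somatostatin, and ghrelin cells are a further type that is frequent in the fetal islet. m6A is written on adenosines in the DRACH motif, most often in long internal exons and around the stop codon, and ALKBH5 removes it. Antibodies against m6A also bind m6Am, a related mark on the first transcribed base next to the cap. The length and exon structure of a transcript therefore belong to the description of its peaks.

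DRACH stands for A, G or T, then A or G, then AC, then A, C or T. All 9 hormone peaks held at least 1 DRACH site on the transcript strand, as 92.8% of all peaks did in hILO, 91.2% in A5-KO PP, 90.7% in DE and 89.9% in WT PP. To show where the candidate adenosines lie, 1 window of 25 bases from the GRCh38 reference is given for each distinct hormone peak, 5′ to 3′ on the transcript strand, with the DRACH site in capitals. The A before the C of each site is the candidate base, and a match is no evidence that it was methylated.
INS, 5′ peak in hILO, codon 18, chr11:2160906-2160930, minus strand: ggccctctggGGACCtgacccagcc
INS, 3′ peak in hILO, codon 107, chr11:2159853-2159877, minus strand: accagctggaGAACTactgcaacta
GCG, hILO, 5UTR, chr2:162152223-162152247, minus strand: acagagcttaGGACAcagagcacat
SST, 5′ peak in hILO, 5UTR, chr3:187670316-187670340, minus strand: gcctagagttTGACCagccactctc
SST, 3′ peak in hILO, 3UTR, chr3:187668962-187668986, minus strand: gtcttcagcgAGACCcttgcattag
GHRL, DE, 5UTR, chr3:10291394-10291418, minus strand: gctaaaatagGGACCaaagctgctg
GHRL, A5-KO PP, codon 71, chr3:10289762-10289786, minus strand: ggcagaggatGAACTggaagtccgg
IAPP, WT PP and A5-KO PP, 5UTR, chr12:21372924-21372948, plus strand: atacaagcttGGACTcttttcttga

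The IAPP window was the sole hormone window with GGACT, the form of the motif known to be methylated most often. The INS 5′ peak, the GCG peak and the GHRL peak in DE held GGAC followed by C or A. The SST peaks, the INS 3′ peak and the GHRL peak in A5-KO PP held 0 GGAC sites.

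Among the populations the hormones divided into 3 patterns. INS, GCG and SST had peaks in hILO alone. GHRL had 1 peak in DE and 1 elsewhere on the transcript in A5-KO PP. IAPP had the same peak in both WT PP and A5-KO PP. hPSC and PP held 0 hormone peaks, DE and WT PP 1 each, A5-KO PP 2 and hILO 5. In hILO 3 of the 6 hormone genes had a peak, while 57.6% of the 20033 protein-coding genes in GENCODE 44 did. In the other lists 0 of 6 stood against 60.1% in hPSC, 1 of 6 against 56.9% in DE, 0 of 6 against 52.1% in PP, 1 of 6 against 62.8% in WT PP and 2 of 6 against 69.6% in A5-KO PP. The shares in hILO were thus near the background, and those in the other lists were below it. A gene without a peak may be unexpressed or expressed without a called peak, and the lists do not tell these apart. Fewer cells of an endocrine type and less hormone RNA per cell cannot be told apart in these bulk samples either.

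All read numbers are pooled over the libraries of a group, and no value per library was analysed, so no spread between cultures and no test between populations is given. Errors are counting errors of the pooled reads, and copies made by PCR are not independent molecules. Over the 6 lists, input reads in peaks ranged from 6987612 (PP) to 28463998 (hILO), and IP reads from 30723097 (DE) to 79822815 (hPSC). The median peak held 302 input reads for hILO, 103 for DE, 87 for PP, 80 for WT PP, 66 for hPSC and 33 for A5-KO PP. Whether this difference bears on the genes with peaks in hILO alone, such as GCG with 241 input reads, was not tested. Peaks without any input read made up 11.5% in WT PP, 24.6% in A5-KO PP and at most 0.183% elsewhere. ALKBH5 itself had 4 peaks with 289 input and 836 IP reads in WT PP, and 5 peaks with 1 input and 592 IP reads in A5-KO PP. Within these called ALKBH5 peaks, reads were thus nearly absent from the A5-KO PP input but not from its IP. ALKBH5 reads outside peaks are not in the lists.

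**Figure D1:**
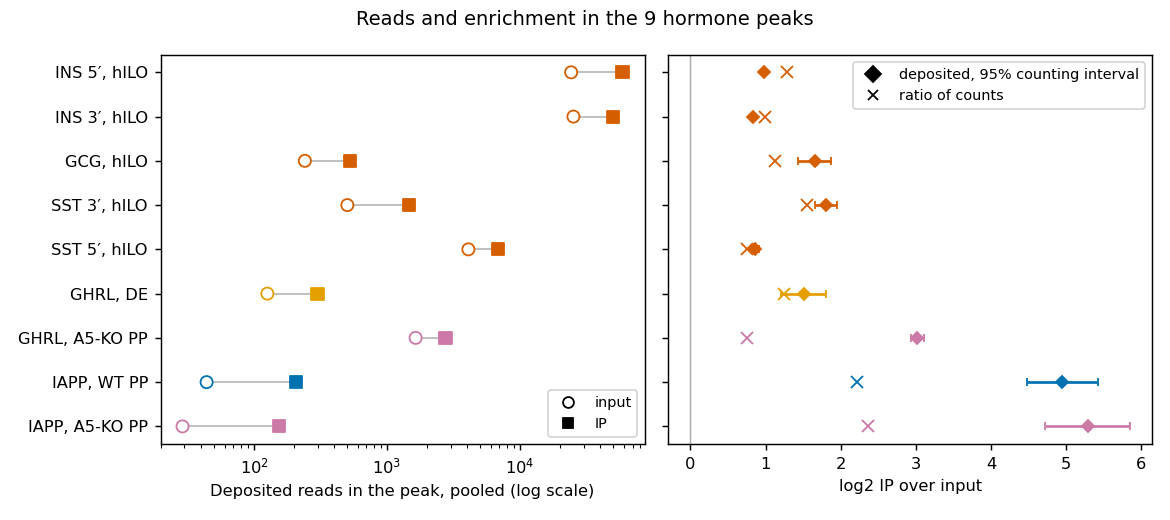
Reads and enrichment of the 9 hormone peaks. The left panel gives pooled input reads (open circles) and IP reads (squares) on a log axis, and the right panel the deposited log2 enrichment (diamonds, bars 95% counting intervals) with the log2 ratio of counts (crosses), coloured by population; INS holds the most reads at a low deposited enrichment, and IAPP in WT PP and A5-KO PP the fewest reads at the highest deposited enrichment.

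INS encodes preproinsulin, the precursor of the hormone that lowers blood glucose. It had 2 peaks in hILO. The 5′ peak (chr11:2160816-2161190, minus strand, GRCh38) held 24198 input and 58888 IP reads, and the 3′ peak (chr11:2159779-2159878) 25170 input and 50081 IP reads. Nearly all hILO peaks had fewer input reads than these, 99.8% in both cases. The deposited log2 enrichment of IP over input was 0.98 ± 0.011 (counting error) in the 5′ peak and 0.83 ± 0.011 in the 3′ peak. The 3′ peak was lower by a difference of -0.14 (95% counting interval -0.17 to -0.11). INS therefore combined very many reads with a low deposited enrichment: 15.3% and 8.19% of the 31519 hILO peaks had a lower value than its 5′ and 3′ peak. Among the 178 hILO peaks with at least 10000 input reads these shares were 25.8% and 16.3%.

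Place on that scale depended on the measure. By the plain ratio of the counts, with a pseudocount of 1, the log2 values were 1.28 for the 5′ peak and 0.99 for the 3′ peak, and 41.7% and 23.2% of hILO peaks were lower. The 5′ peak then lay at or above the GCG peak, within its counting interval of 0.91 to 1.35, and on the deposited scale it lay below. The deposited value is a model estimate of the peak caller, and its step from the ratio of counts was -0.31 for the 5′ peak and -0.16 for the 3′ peak.

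The INS 5′ peak covered positions 20 to 215 of the canonical transcript, with 40 nt of 5UTR and codons 1 to 52 of the 110 codons. Its other 179 nt lay in sequence that the canonical transcript removes as an intron and another annotated isoform keeps. The 3′ peak covered positions 366 to 465, with codons 103 to 110 and the 76 nt from the stop codon to the transcript end. Both peaks carried the identifier of INS and that of the readthrough gene INS-IGF2, so reads of the readthrough transcript cannot be separated. The 5′ peak held 4 DRACH sites, where the median of 619 hILO peaks of the same exonic length was 9 and 13 had fewer. The 3′ peak held 2 sites, the median for its length. The INS windows printed for codons 18 and 107 lie in the coding part of both peaks.

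GCG encodes the precursor of glucagon, which raises blood glucose, and of the incretin GLP-1. Its single peak in hILO (chr2:162147485-162152276, minus strand) lay over exons 1 to 3 in 3 blocks of 119, 101 and 30 nt. It held 241 input and 528 IP reads, and 42.7% of hILO peaks had fewer input reads. The deposited log2 enrichment was 1.65 ± 0.11, close to the middle of the list with 57.6% of peaks lower. By the ratio of counts, log2 1.13, 31.8% were lower. The peak covered positions 1 to 221 of the canonical transcript, with 99 nt of 5UTR and codons 1 to 41 of 180, and 29 nt upstream of the canonical start that belong to another annotated isoform. It held 3 DRACH sites within its blocks, where the median for its length was 6, and the printed site lies at position 13 of the canonical transcript. No peak was listed on the remaining coding sequence or on the 485 nt from the stop codon to the transcript end.

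SST encodes the precursor of somatostatin, an inhibitor of insulin and glucagon release. Its 2 peaks in hILO differed widely in reads and enrichment. The 5′ peak (chr3:187670213-187670387, minus strand) held 4085 input and 6865 IP reads and covered 96 nt of 5UTR and codons 1 to 27 of 116. The 3′ peak (chr3:187668912-187669036) held 503 input and 1471 IP reads and lay wholly in the 3UTR, to its last base. The log2 enrichment was 0.86 ± 0.029 in the 5′ peak and 1.81 ± 0.074 in the 3′ peak. The 3′ peak was higher by 0.95 (95% counting interval 0.79 to 1.10), or by 0.80 (0.64 to 0.95) on the ratio of counts. In the hILO list 9.32% of peaks lay below the SST 5′ peak and 67.0% below the 3′ peak. The 3′ peak held 3 DRACH sites, equal to the median for its length, and the 5′ peak 1, the printed TGACC, where the median was 4.

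The order of the 3 hormones by density, the input reads per kb of peak scaled to 1000000 input reads in the peaks of the list, was the same as by reads. INS stood at 3651, SST at 537 and GCG at 33.9, with 95% counting intervals that did not overlap for single peaks of different genes. These placed INS 48th, SST 598th and GCG 10618th among the 15326 genes with a hILO peak. The densest peak alone gave 8843 for INS and 820 for SST, in the same order. The density describes the stretches within called peaks and is not the level of the whole transcript.

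**Figure D2:**
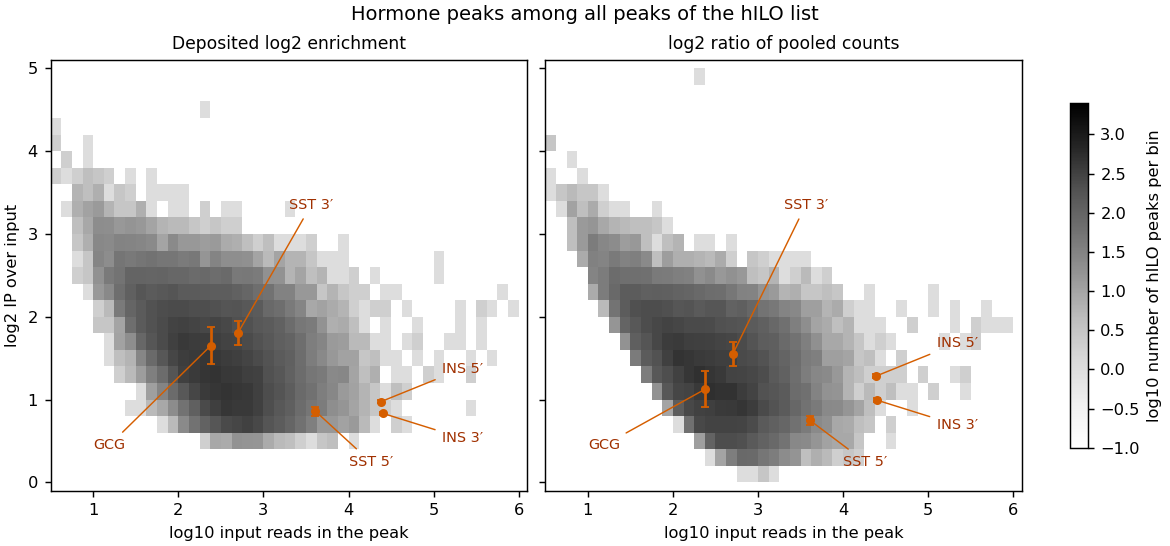
The 5 hormone peaks of hILO (orange points, bars 95% counting intervals) over all 31519 peaks of that list (grey, log10 number of peaks per bin). The x axis is log10 input reads and the y axis log2 IP over input, as deposited on the left and as the ratio of pooled counts on the right; both INS peaks lie at the right edge of the list, and the INS 5′ peak lies below GCG on the left and within its counting interval on the right.

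GHRL encodes preproghrelin, the precursor of the hunger hormone. In DE its peak (chr3:10291360-10292924, minus strand) joined exons 1 and 2 in blocks of 83 and 92 nt and held 126 input and 300 IP reads. The log2 enrichment was 1.51 ± 0.15, with 34.4% of DE peaks lower. The peak lay wholly in the 5UTR, at positions 24 to 198, and held 1 DRACH site, where 97.8% of DE peaks of this length held at least 1 and the median was 4. Inside its span lay 2 peaks of the opposite strand, but they shared 0 exonic bases with it.

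In A5-KO PP the GHRL peak (chr3:10288138-10289857) was another one. It held 1639 input and 2751 IP reads, and 98.0% of A5-KO PP peaks had fewer input reads. WT PP had no GHRL peak. The A5-KO PP peak covered 96 nt of exon 4, codons 44 to 75 of 117, and 79 nt of an exon that the canonical transcript lacks. Its log2 enrichment was 3.02 ± 0.045 as deposited and 0.75 as the ratio of counts. On the deposited scale 31.1% of the list was lower, and by the ratio of counts 17.8%. The peak held 4 DRACH sites, the median for its length. The density of input reads, 737 per kb on the same scale, placed GHRL 415th of 22161 genes with a peak in A5-KO PP, while in DE it stood 7957th of 15419 with 57.1. These ranks come from different stretches of GHRL and from different protocols, so they do not measure a change in GHRL level. Without a WT PP value the effect of ALKBH5 loss on this peak was not measured.

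IAPP encodes amylin, which beta cells release with insulin. Its peak had the same start and end in WT PP and A5-KO PP (chr12:21354959-21372996, plus strand) and was made of 55 nt of an alternative first exon and 95 nt of exon 1 of the canonical transcript, which are 5UTR. The WT PP peak held 44 input and 208 IP reads, and the A5-KO PP peak 29 and 154. The log2 enrichment was 4.95 ± 0.24 in the former and 5.29 ± 0.29 in the latter. The difference was 0.34, with a 95% counting interval of -0.40 to 1.07 that includes 0. Within its own list 73.2% of WT PP peaks and 64.6% of A5-KO PP peaks had a lower value than the IAPP peak, a change of the opposite direction. The density of input reads was 15.4 per kb in WT PP against 15.2 in A5-KO PP, with intervals of 11.2 to 20.7 and 10.2 to 21.8. These IAPP values cannot be set against the hILO values of INS on one scale. The median log2 enrichment of all peaks was 3.65 in WT PP, 4.31 in A5-KO PP and from 1.53 to 1.74 in the lists of the first experiment.

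IAPP had no peak in hILO, where INS had its peaks. The canonical IAPP transcript holds 38 DRACH sites. PPY, a hormone of the gamma cell of the islet, had 6 DRACH sites in 468 nt and no peak in the 6 lists, as had 18.2% of protein-coding genes.

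The hormone transcripts were shorter than most. Canonical lengths were 465 nt for INS, 468 for PPY, 607 for SST, 1124 for GCG, 1434 for GHRL and 1942 for IAPP, against a median of 3492 nt for the 11544 protein-coding genes with a hILO peak. Only 0.598% of these genes had a shorter transcript than INS and 1.85% a shorter one than SST. The longest exon was 191 nt in PPY, 219 in INS, 366 in SST, 489 in GCG and 736 in GHRL, where the median was 1803 nt. IAPP, with a longest exon of 1744 nt, was close to that median. The density of DRACH sites was 19.4 per kb in INS, 20.5 in GCG, 23.1 in SST and 19.6 in IAPP, against a median of 19.2. GHRL, with 16.7 per kb, and PPY, with 12.8, lay below it, with 24.6% and 4.22% of genes lower. By the position of the central A, 5 of 9 sites of INS, 4 of 23 of GCG and 5 of 14 of SST lay inside hILO peaks, which covered 63.7%, 19.7% and 49.4% of those transcripts.

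**Figure D3:**
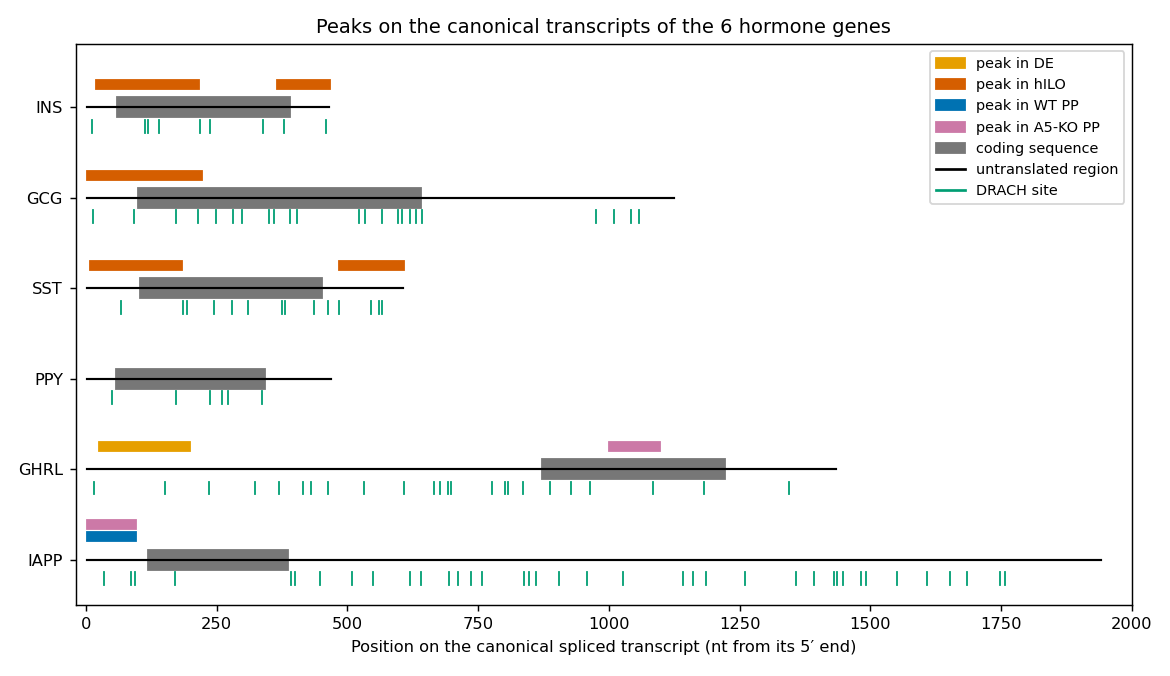
Peaks on the canonical transcript of each hormone gene, in nt from its 5′ end (x axis), with the coding sequence as a grey box, untranslated regions as a line, DRACH sites as green ticks and peaks as bars coloured by population; parts of peaks outside the canonical transcript are not drawn. The INS and SST peaks of hILO lie at both ends of the transcript, GCG has a peak at its 5′ end, and PPY has none.

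Most of the peaks lay at an end of these transcripts, with the GHRL peak of A5-KO PP, at positions 1001 to 1096 of 1434 nt, at neither end. This is a feature that the choice of members did not use and that was noticed after the values were seen. A peak was placed by its bases on the canonical transcript, and bases outside it were not counted. Of the 5 hILO hormone peaks, 3 had their first such base in the first 25 nt (INS, GCG and SST), as did 2.14% of 25876 placements of hILO peaks on canonical coding transcripts. The GCG peak also extended 29 nt upstream of that start. The other 2 reached the last 25 nt (INS and SST), as 6.19% did. On transcripts of at most 2000 nt the background was higher, 6.38% for the start and 19.1% for the end. The GHRL peak of DE also had its first base in the first 25 nt, where the background was 2.15%, or 7.23% on transcripts of at most 2000 nt. Both IAPP peaks covered canonical position 1, but they began in an alternative first exon far upstream. The background was 3.29% in WT PP and 3.09% for A5-KO PP, or 7.86% and 7.84% on transcripts of at most 2000 nt. All hILO peaks at transcript starts held 1.90 DRACH sites per 100 nt, and all hILO peaks 2.22. The part of cap-adjacent m6Am in the peaks at transcript starts was not tested.

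INS, GCG and SST were among 485 genes whose peaks were all in hILO, 3.16% of the genes with a hILO peak. Their number was 949 with p below 1e-05 in all lists and 1322 when only hPSC, DE and PP were set against hILO, and INS, GCG and SST belonged to both sets. By input reads in their peaks, among the genes as deposited, INS was the first of the 485, SST the 21st and GCG the 297th, where the median was 393 reads. The 5 genes next to INS in that order were TMSB10 (30748 input reads), which encodes an actin-binding thymosin, the pseudogene KRT8P45 (16996), the lncRNA ENSG00000286367 (16698), TPH1 (13681), the serotonin-making hydroxylase of enterochromaffin cells, and SLC44A5 (10674), a choline transporter-like gene. INS itself had 49368. The reads of KRT8P45 are uncertain, since a pseudogene can take reads of its parent gene.

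Each of the 6 lists held peaks on some of the genes that process and store the hormones. Of 14 processing and granule genes, 13 had a peak in hILO, 12 in hPSC, 9 in WT PP, 9 in A5-KO PP, 6 in PP and 5 in DE. Their shares of 92.9% in hILO and 85.7% in hPSC lay above those of all protein-coding genes, 64.3% in both WT PP and A5-KO PP was near them, and 42.9% in PP and 35.7% in DE lay below. PTPRN, a protein of the granule membrane, was the sole one with peaks in hILO alone, with 3 peaks and 1713 input reads. PCSK2, a convertase that cuts proinsulin and proglucagon, had 3 peaks with 6636 input reads in hILO and 2 peaks with 175 in A5-KO PP, and none in the other 4 lists. The convertase PCSK1 had 2382 input reads in hILO peaks, carboxypeptidase CPE 1875 and the granule protein CHGB 4733. Log2 enrichments of the hILO peaks ran from 1.16 to 1.69 in PCSK2, from 0.67 to 1.78 in PCSK1, from 1.36 to 1.59 in CPE and from 1.10 to 1.87 in PTPRN, and stood at 1.39 in CHGB.

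A further list held 15 genes, the hormone receptors with their RAMP partners and the ghrelin acyltransferase MBOAT4. Of these 9 had a peak in hILO, 6 in WT PP, 6 in A5-KO PP, 5 in hPSC, 5 in DE and 3 in PP. The share in hILO was near that of all protein-coding genes, and the shares in the other lists lay below it. SSTR2, a somatostatin receptor, had the most input reads in hILO peaks, 17100 over 7 peaks, with log2 enrichments from 0.81 to 2.44. It had peaks in all 6 lists. RAMP1, a partner of the calcitonin receptor family, followed with 3371 reads, the insulin receptor INSR with 2427, MBOAT4 with 1726 and SSTR1 with 569. SSTR3 had peaks in hILO alone. SSTR4, SSTR5, GHSR, RAMP2 and RAMP3 had no peak in any list, 33.3% of the 15 genes against 18.2% of protein-coding genes.

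Of 37 other peptide hormone genes, 12 had a peak in hILO, 10 in WT PP, 10 in A5-KO PP, 8 in DE, 5 in hPSC and 5 in PP. In each list this share was below that of all protein-coding genes. PYY, GAST, GIP, MLN, PTHLH, NPPA and NPPB had peaks in hILO alone, as INS, GCG and SST did. They were 7 of the 12 with a hILO peak, where the share over all genes with a hILO peak was 3.16%. IGF2 had 714557 input reads in hILO peaks, and some of its exons are shared with the INS-IGF2 readthrough gene. MLN (motilin) had 9236 reads at a log2 enrichment of 1.59, GIP (an incretin) 3054, NPPA (atrial natriuretic peptide) 1870 and ADM (adrenomedullin) 1395. MLN and GIP are hormones of the gut.

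**Figure D4:**
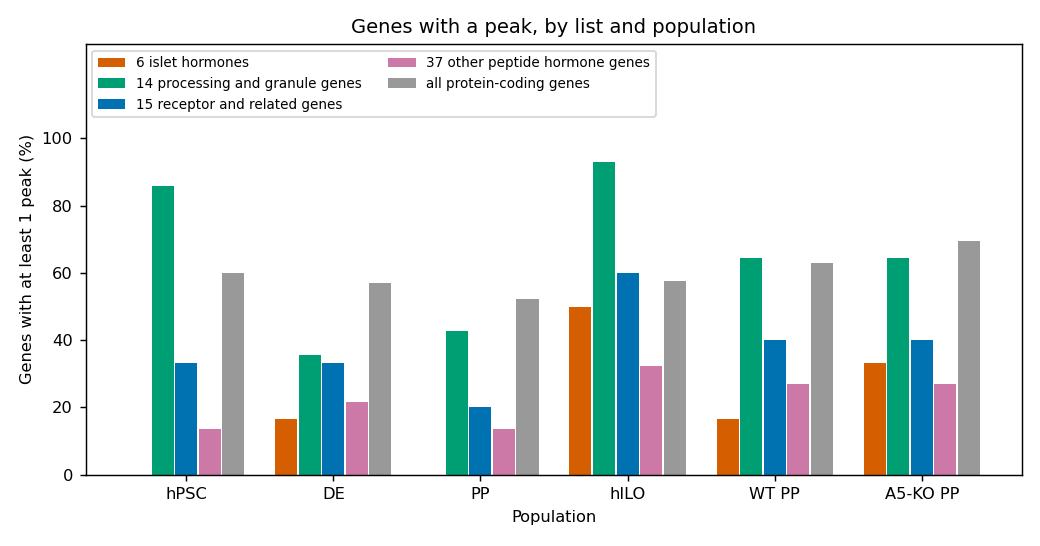
Share of genes with at least 1 peak (y axis, %) in each of the 6 populations (x axis) for the 6 islet hormones, 14 processing and granule genes, 15 receptor and related genes, 37 other peptide hormone genes and all protein-coding genes. The islet hormones reach their highest share in hILO, with 3 of 6 genes, where 13 of 14 processing and granule genes have a peak.

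Markers of other cell types also carried peaks in hILO, where 57.6% of protein-coding genes had one. Of 10 endocrine markers 9 had a hILO peak, from 25 input reads in CHGA and 109 in ISL1 to 4581 in PDX1, and MAFA, a factor of mature beta cells, had none. All 4 enterochromaffin markers had one, from 339 input reads in LMX1A to 13681 in TPH1, and of these TPH1 and FEV had peaks in no other list. All 5 liver markers had one, from 510 input reads in AFP to 70077 in FGB, and 3 of 3 duct markers. Of 5 exocrine markers only CELA3A did, with 224 input reads, and of the pluripotency markers LIN28A alone. In PP, where 52.1% of protein-coding genes had a peak, none of the enterochromaffin or liver markers did. Of the endocrine markers 5 did there, and 3 of 3 duct markers. The duct markers also all had peaks in hPSC and WT PP, and CELA3A had one in every list but PP. The part of these other cells in the INS, GCG and SST values was not tested. Of the enterochromaffin markers SLC18A1 (1017 input reads) and LMX1A (686) had peaks in A5-KO PP, where GHRL had its peak, and none in WT PP, where GHRL had none. TPH1 and FEV had none in either. Of the liver markers 3 had a peak in A5-KO PP and 4 had one in WT PP, where the shares of protein-coding genes were 69.6% and 62.8%. Input reads in peaks were 88 in A5-KO PP against 0 in WT PP for AFP, 874 against 71 for FGB and 250 against 15675 for TTR. APOA1 had 3 in WT PP and no peak in A5-KO PP, and ALB had no peak in either. The part of such cells in the GHRL value was not tested.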

How the data were processed

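Trimming by fastp, alignment to GRCh38 by HISAT2 (1 alignment kept for a read) and peak calling by exomePeak2, on all libraries of a population at once, were done by the authors. Per the file headers the deposited columns hold IP and input counts pooled by group, the log2 enrichment, and the p-value with its adjusted form. The sources do not say if pooling meant sums or means. Peak thresholds in the study's methods were 1.5 for IP/input and 1e-05 for p, and the adjusted p from exomePeak2 was at most 3.24e-07 for the hormone peaks. The deposited lists also held peaks that miss this p limit, since applying it changed the genes found in hILO alone from 485 to 949. Background shares of genes and peaks rest on the lists as deposited. Per-sample columns left out numbered 0.

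Peaks were matched to genes by identifier and reduced to GENCODE 44 exons of the genes named. Positions refer to the canonical transcript. Counting errors came from the IP and input counts, with normal 95% intervals, and are too large if counts are means. DRACH, GGAC and GGACT sites were counted within exonic blocks on the transcript strand and set against peaks of equal exonic length in the same list. Densities are input reads per kb of exonic peak and per 1000000 input reads in peaks. Scripts used Python 3.11.15, pandas 2.3.3 and pysam 0.24.0 and were tested on simulated data.

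Members, gene lists and tests were chosen with earlier results of these data known. Named genes were the 6 hormones, up to 5 genes per list with the most hILO input reads, and the 5 genes found in hILO alone with the most input reads. Others (genes at list counts of 0 or with hILO peaks alone, and markers) were named after their values were seen.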

Additional observations from a re-analysis of the deposited data

How the results depend on the processing

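No paired analysis was possible because each list holds counts pooled over its libraries, and for the same reason leaving out a library was not run. Matching peaks by exon overlap or requiring p below 1e-05 kept the number of hormone peaks in every list. A deposited enrichment of at least 2-fold left 2 of the 5 hILO peaks, GCG and the SST 3′ peak. The INS peaks and the SST 5′ peak were lost, although the plain ratio of counts of the INS 5′ peak was 2.43. A deposited enrichment of at least 3-fold also left 2 in hILO and 0 in DE, and the plain ratios of these 2 were 2.19 (GCG) and 2.92 (SST). Requiring at least 50 input reads removed the IAPP peaks, leaving 0 peaks in WT PP and GHRL as the 1 of A5-KO PP. The genes with peaks in hILO alone numbered 949 with p below 1e-05 in all lists and 1322 against hPSC, DE and PP only, and 429 with at least 50 input reads; INS, GCG and SST belonged to each set. Shifting the ratio of counts to the median of its list moved 6 of 9 log2 enrichments beyond their counting intervals, with INS 5′ at 1.40 and GCG at 1.25, and left each above 0. Pseudocounts of 10 and 0.5 moved 0 of 9 ratios beyond them. Extending the peaks by 50 nt changed the DRACH count by over 1.5 times in 5 of 9. Using the length of the span lowered 5 of 7 densities, those of GCG, GHRL and IAPP, in each population where they had a peak, with GCG falling from 33.9 to 1.77. The densest peak alone raised INS from 3651 to 8843 and SST from 537 to 820. Both transcript-end settings were chosen after seeing the data, and with a window of 50 nt the hILO background was 3.03% at starts and 6.83% at ends. The IAPP values rest on 44 and 29 input reads, and the shifted ratio of counts moved them to 3.84 (WT PP) and 4.25 (A5-KO PP).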
